A study of Mus musculus with 6 samples.

Results

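The necroptosis and death receptor genes examined here are the TNF receptor gene Tnfrsf1a, the adaptors Tradd and Fadd, the caspase gene Casp8 and its relative Cflar, the kinases Ripk1 and Ripk3, and Mlkl. They were measured in immortalized mouse embryonic fibroblasts (MEFs) that lack Kdm5a. KDM5A is a demethylase of histone H3 lysine 4, and in KDM5A-H483A a histidine of its catalytic domain is replaced by alanine. Members were the probe sets that the platform annotation assigns to only 1 of the 8 genes, which gave 14 probe sets of 7 genes among 45101 probe sets and 18194 genes in all. Ripk1 was not analysed here. Mlkl was picked on its own values, for being higher with KDM5A-H483A than with empty vector, so its differences are given as a description with no test. For the other 6 genes the rule used no values, but the members were chosen with earlier results of these data known. These 6 were tested within a fit over all genes.

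In all, 3 groups of 2 Affymetrix M430 2.0 arrays were compared, and every group consisted of KDM5A-/- MEFs of a mixed background strain. The control cells carried an empty vector (EV). The second group had wild-type KDM5A put back (called wild-type in the values given here), and the third had the KDM5A-H483A mutant put back (called H483A). All were grown subconfluent in DMEM with fetal bovine serum and collected with trypsin. Both arrays of a group are labelled biological replicates, but nothing tells whether the cultures were kept apart from the start, so a p-value here refers to the spread between these samples only, which may be technical. The labels state neither how the cells were immortalized nor whether they are 1 clone. Across genes, Pearson's r between the arrays of a group was 0.994 for empty vector, 0.986 for wild-type and 0.983 for H483A, and the first H483A array had a higher r, 0.995, with the first empty vector array than with the other H483A array.

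In textbook accounts, TNF bound to TNF receptor 1 assembles TRADD and the kinase RIPK1, and the complex first signals to NF-kB. FADD and caspase-8 can then join RIPK1, and caspase-8 either starts apoptosis or, paired with the caspase-like protein cFLIP (the product of Cflar), keeps the necroptosis kinases in check. When caspase-8 is blocked, RIPK1 and RIPK3 bind each other and RIPK3 phosphorylates MLKL, which then permeabilises the plasma membrane. Fibroblasts are a standard cell for such work, and several of these genes are known to respond to interferon. Transcript levels carry no information on the cleavage and phosphorylation steps that control this pathway.

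The 250 bases upstream of the RefSeq start sites (GRCm38.p6) of the member genes were searched on both strands for motifs of factors that act on this pathway. Windows were found for 7 of the 8 members (Ripk1 has 2 start sites), and 2 are printed. Mlkl is shown because its level separated the groups, and Casp8 because its window was the only one among the members with a match to the interferon regulatory factor core AANNGAAA. The Mlkl window lies at chr8:111338206-111338455 on the minus strand and the Casp8 window at chr1:58802252-58802501 on the plus strand. Both run 5′ to 3′ towards the start site, and capitals mark matches to AANNGAAA, to the STAT core TTCNNNGAA or to the kappa B consensus.
Mlkl: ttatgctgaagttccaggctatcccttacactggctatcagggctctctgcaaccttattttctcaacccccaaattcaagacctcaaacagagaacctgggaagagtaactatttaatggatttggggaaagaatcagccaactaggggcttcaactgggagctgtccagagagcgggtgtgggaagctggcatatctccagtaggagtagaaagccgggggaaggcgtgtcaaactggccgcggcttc
Casp8: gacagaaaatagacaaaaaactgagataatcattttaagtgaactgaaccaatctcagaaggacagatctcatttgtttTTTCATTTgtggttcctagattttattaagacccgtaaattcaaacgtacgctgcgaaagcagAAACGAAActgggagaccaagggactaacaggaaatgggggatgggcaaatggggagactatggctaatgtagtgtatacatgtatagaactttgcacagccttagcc

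The Mlkl window held no match to any of these, nor to CACGTG, the E-box, nor to CCGCCC, a motif described for the DNA-binding domain of KDM5A. The Casp8 window held AAACGAAA, starting 108 bases before the start site, and TTTCATTT, the reverse-strand form, starting 171 bases before it. In the Tnfrsf1a window TTCCGTGAA matched the STAT core, which also occurred 2 times in the window of the second Ripk1 start site. The Ripk3 window held the E-box 1 time. The KDM5A motif, counted on either strand, occurred 2 and 4 times in the windows of the first and second Ripk1 start sites, 2 times in the Fadd window and 1 time in that of Ripk3. Among 32544 windows of this length, 21.3% held AANNGAAA, 7.04% TTCNNNGAA, 3.92% the kappa B consensus and 6.03% the E-box. The KDM5A motif was in 33.0% of them. A match describes letters in the window and not the binding of a factor.

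Mlkl, the executioner of necroptosis, stood at 5.22 and 5.09 (log2 RMA value, first and second array) in the EV arrays, at 5.45 and 5.32 in the wild-type arrays, and at 5.84 and 5.84 in the H483A arrays. The 3 groups did not overlap, and the wild-type arrays lay between the other groups. Group means were 5.16 ± 0.09 (EV), 5.38 ± 0.09 (wild-type) and 5.84 ± 0.003 (H483A; SD, n = 2). The differences on the log2 scale were 0.69 (1.61-fold) for H483A against EV, the contrast that the choice of Mlkl rests on, 0.46 (1.37-fold) for H483A against wild-type, and 0.23 (1.17-fold) for wild-type against EV. The difference between H483A and EV was 0.68 without the first H483A array. These 3 differences share arrays with each other. Over all genes, 0.484% had arrays in this order of groups with no overlap. Because Mlkl was picked for a part of this order, that share does not measure how unusual Mlkl is. In bulk RNA, a change in a few cells and a change in RNA per cell cannot be told apart.

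**Figure D1:**
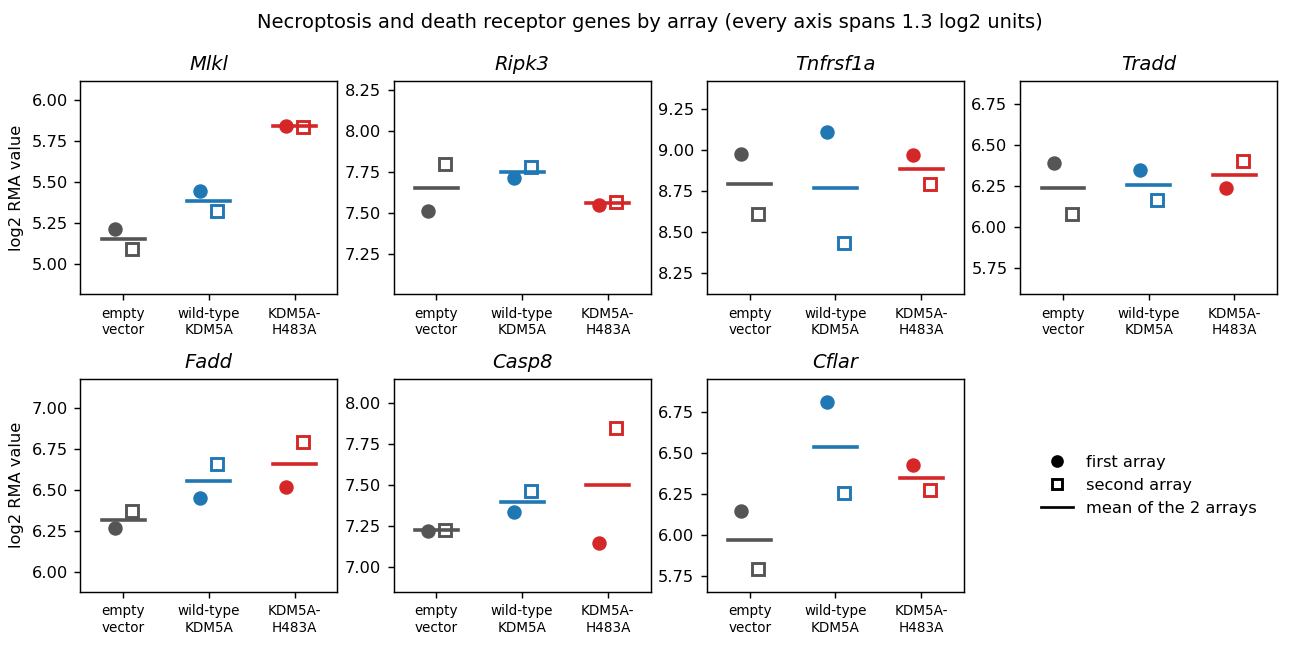
Log2 RMA value of each member's brightest probe set (y axis, 1.3 log2 units in each panel) by group (x axis), with filled circles for first arrays, open squares for second arrays and bars for the mean of the 2. The Mlkl groups form 3 separate steps from 5.09 to 5.84, while Casp8 in the H483A arrays lies at 7.15 and 7.85.

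The Mlkl values come from 1 probe set (1429570_at), whose mean brightness lay at the 63.7th percentile of all probe sets. Its mean of 5.46 was below the median gene, at 5.52, and the deposited values carry no detection call. The 2 H483A arrays differed by 0.004 in Mlkl, a gap at the 1.5th percentile of all genes in this group. Elsewhere these 2 arrays were far apart, with 436 genes at least 1 log2 unit from each other. The corresponding gaps of Mlkl were 0.12 in the EV arrays and 0.12 in the wild-type arrays, near the median gap over all genes of 0.13 and 0.18.

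Tnfrsf1a, the gene of TNF receptor 1, stood at 8.97 and 8.61 in the EV arrays, 9.11 and 8.43 in the wild-type arrays, and 8.97 and 8.79 in the H483A arrays. In each group the first array was the higher one, and the groups overlapped in every comparison. Its log2 differences were -0.02 (95% CI -0.62 to 0.57) for wild-type against EV, 0.09 (95% CI -0.50 to 0.68) for H483A against EV, and 0.11 (95% CI -0.48 to 0.70) for H483A against wild-type. Tradd, the adaptor that binds the receptor's death domain, stood at 6.39 and 6.08 in the EV, 6.35 and 6.17 in the wild-type, and 6.24 and 6.40 in the H483A arrays. Here too the groups overlapped, with log2 differences of 0.02 (95% CI -0.36 to 0.40), 0.08 (95% CI -0.30 to 0.47) and 0.06 (95% CI -0.32 to 0.44).

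Fadd, the adaptor that recruits caspase-8, stood at 6.27 and 6.37 in the EV arrays, 6.45 and 6.66 in the wild-type arrays, and 6.52 and 6.79 in the H483A arrays. Both groups with KDM5A lay above both EV arrays, and they overlapped each other. Against EV the log2 difference of the wild-type group was 0.24 (95% CI -0.13 to 0.60, SE 0.15), with a limma adjusted p of 1. That of the H483A group was 0.34 (95% CI -0.03 to 0.70, SE 0.15), with a limma adjusted p of 0.999. It was 0.20 without the second H483A array and 0.09 with the mean of both Fadd probe sets, and the wild-type value was 0.13 without the second wild-type array and 0.14 with that mean. Between the 2 KDM5A forms it was 0.10 (95% CI -0.26 to 0.46). None passed the threshold of 0.05.

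Casp8, the initiator caspase, stood at 7.22 and 7.23 in the EV arrays, 7.33 and 7.46 in the wild-type arrays, and 7.15 and 7.85 in the H483A arrays. The H483A arrays were the lowest and the highest of all 6. Their gap of 0.70 was larger than that of 92.9% of genes in this group, and that of the EV arrays, at 0.008, was smaller than that of all but 3.41% of genes. The log2 difference of H483A against EV was 0.27 (95% CI -0.28 to 0.82, SE 0.23), with a limma adjusted p of 0.999. It was 0.62 without the first H483A array and -0.08 without the second. The wild-type arrays lay above the EV arrays, by 0.17 (95% CI -0.38 to 0.72, limma adjusted p = 1), or 0.11 without the second wild-type array, and H483A minus wild-type was 0.10 (95% CI -0.45 to 0.65).

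Cflar, whose product cFLIP restrains caspase-8, had the largest difference among the 6 tested members. It stood at 6.15 and 5.80 in the EV arrays, 6.81 and 6.26 in the wild-type arrays, and 6.43 and 6.27 in the H483A arrays. All 4 arrays with KDM5A lay above both EV arrays. In the wild-type arrays the log2 difference was 0.56 (1.48-fold, 95% CI 0.03 to 1.09, SE 0.22), with an unadjusted p of 0.0404 and a limma adjusted p of 1. In the H483A arrays it was 0.38 (95% CI -0.15 to 0.91, SE 0.22), with a limma adjusted p of 0.999. H483A minus wild-type was -0.19 (95% CI -0.72 to 0.34). The wild-type value was 0.29 without the first wild-type array, 0.84 without the second and 0.20 with the mean of all Cflar probe sets. The H483A value was 0.20 without the second EV array and 0.22 with that mean.

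Ripk3, the kinase that activates MLKL, varied least, with a range of 0.29 over all 6 arrays. It stood at 7.51 and 7.80 in the EV arrays, 7.71 and 7.78 in the wild-type arrays, and 7.55 and 7.57 in the H483A arrays. Both H483A arrays lay below both wild-type arrays, the opposite order to Mlkl. The log2 difference was -0.19 (95% CI -0.52 to 0.15, SE 0.14), with a limma adjusted p of 0.928. Against EV it was 0.09 (95% CI -0.24 to 0.43) for wild-type and -0.10 (95% CI -0.43 to 0.24) for H483A.

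**Figure D2:**
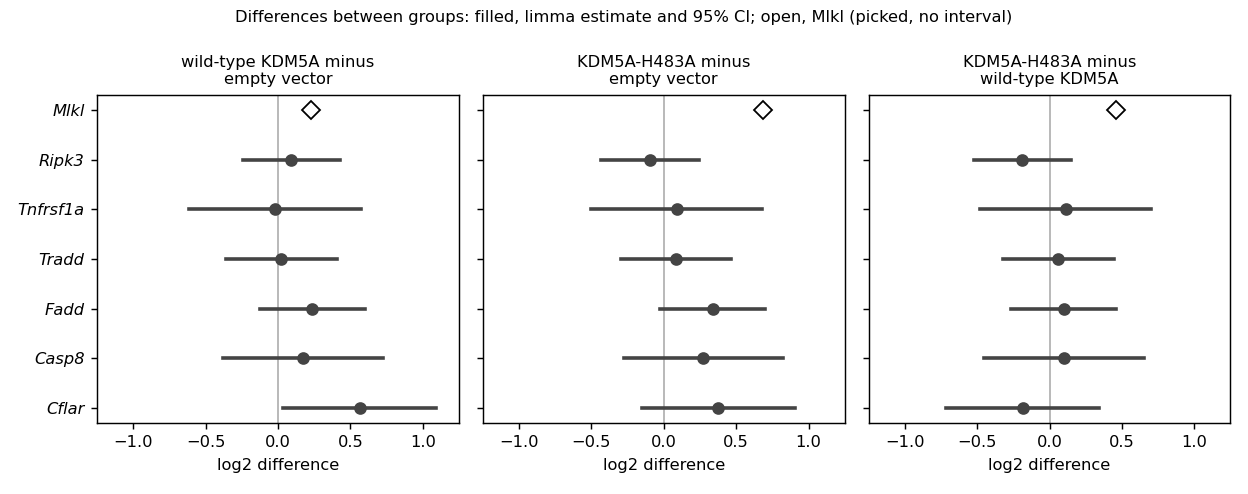
Log2 difference between group means (x axis) for each member (y axis) in the 3 comparisons, with the limma estimate and its 95% confidence interval as filled points and bars, and Mlkl as an open diamond without an interval because it was picked for its value. The Cflar interval for wild-type against EV, 0.03 to 1.09, is the 1 interval that does not include 0.

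Of the 6 tested members, 0 passed limma's adjusted p threshold of 0.05 in any comparison, as did 0% of all genes. At an unadjusted p under 0.05 there was 1 member, Cflar, for wild-type against EV, where 2.52% of all genes had one, and 0 members in the other comparisons, with 1.65% of genes for H483A against EV and 3.81% for H483A against wild-type. The wild-type arrays lay above the EV arrays with no overlap for 3 of the 6 (Casp8, Fadd and Cflar) and below for 0, against 16.5% and 15.4% of all genes. In the H483A arrays 2 of the 6 (Fadd and Cflar) lay above EV and 0 below, against 13.6% and 14.6%. Between the KDM5A forms 0 lay higher in the H483A arrays and 1 (Ripk3) lower, against 14.9% and 16.1%. The median log2 difference of the 6 members was 0.13, 0.18 and 0.08 in these comparisons, beside medians over all genes of 0.005, 0.001 and -0.007. The first and second of these share the EV arrays. The half-width of a member's 95% confidence interval lay between 0.34 and 0.59, so smaller differences could not be resolved with 2 arrays a group.

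Probe sets of the same gene did not always follow each other. Fadd had a second probe set (1446499_at) at 5.08 and 5.13 in the EV arrays, 5.08 and 5.22 in the wild-type arrays and 4.93 and 4.98 in the H483A arrays. For H483A against EV it gave a log2 difference of -0.15 (95% CI -0.43 to 0.12), where the brighter Fadd probe set gave a positive one.

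The dimmest of 3 Tradd probe sets (1429117_at) stood at 4.56 and 4.45 in the EV arrays, 4.61 and 4.66 in the wild-type arrays, and 4.83 and 5.0 in the H483A arrays. Its groups did not overlap, and its log2 difference for H483A against EV was 0.41 (95% CI 0.12 to 0.70, unadjusted p = 0.0132, limma adjusted p = 1 over 45037 probe sets). Of the 45037 probe sets, 906 had an unadjusted p under 0.05 for this comparison. The other 2 Tradd probe sets gave 0.08 and -0.12 for the same comparison. The remaining Cflar probe sets had means between 3.34 and 4.80. For wild-type against EV they gave 0.08 (1425686_at), -0.02 (1449317_at), 0.24 (1453482_at) and 0.13 (1425687_at), below the 0.56 of the brightest. For H483A they gave 0.10, 0.27, -0.002 and 0.37. The last of these values (1425687_at, 95% CI 0.055 to 0.68) had an unadjusted limma p of 0.0277 and did not pass. In that probe set, dim at the 21.1th percentile, the groups also rose from EV over wild-type to H483A with no overlap. Of the 14 member probe sets 3 had this order, the picked Mlkl probe set among them. Over all genes 0.484% did, and the share over all probe sets is not given here. The Tradd probe set 1429117_at and the Cflar probe set 1425687_at were singled out after their values were seen. The sources used here do not say where in its transcript each probe set lies.

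**Figure D3:**
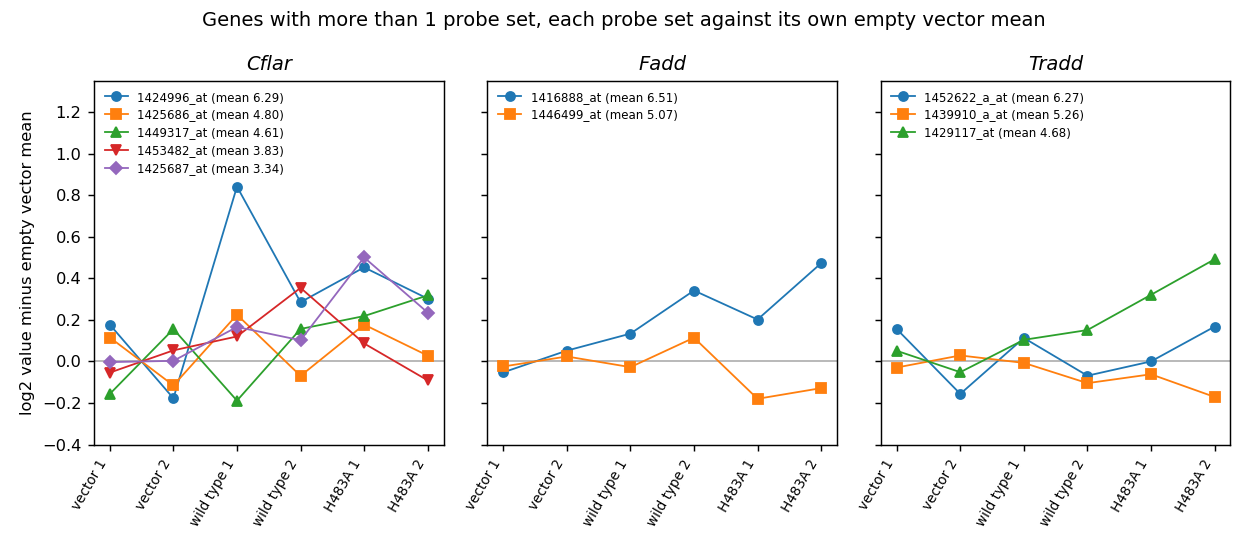
Every probe set of Cflar, Fadd and Tradd by array (x axis), as its log2 value minus its own mean over the 2 EV arrays (y axis), with the mean level in the legend. The Fadd probe sets part in the H483A arrays, and among those of Tradd the dimmest lies highest above its EV mean in both H483A arrays.

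In Tnfrsf1a, Casp8, Tradd and Ripk3 the largest gap between the arrays of a group exceeded every difference between group means. In Cflar and Fadd it did not. In the wild-type group the first array exceeded the second by 0.67 for Tnfrsf1a and 0.56 for Cflar, gaps larger than those of 94.5% and 91.2% of genes. These genes leaned the same way in the EV arrays, by 0.36 and 0.35, and in the H483A arrays, by 0.17 and 0.15. Fadd was lower in the first array of each group, by 0.10, 0.21 and 0.27 for EV, wild-type and H483A. Casp8 was lower there by 0.008, 0.13 and 0.70.

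**Figure D4:**
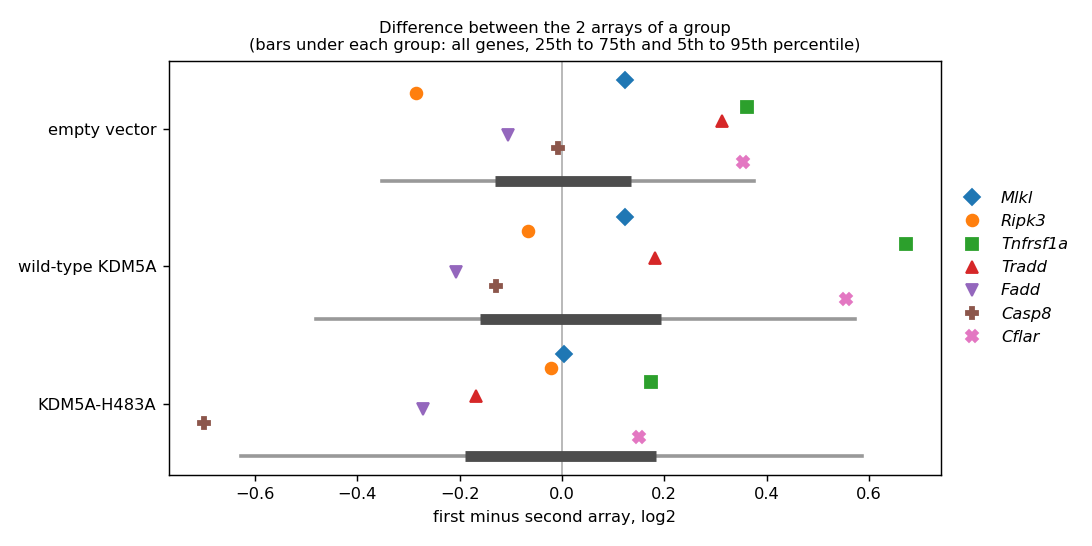
First minus second array (x axis, log2) for each member (symbols) in each group (y axis), above bars for all genes that span the interquartile range (dark) and the 5th to 95th percentile (light). Mlkl sits at 0.004 in the H483A arrays, where Casp8 lies at -0.70.

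The genes whose profile over the 6 arrays was nearest to that of Mlkl were sought among 8855 genes above the median level, with clones and predicted genes passed over, by the root mean square distance between log2 profiles centred on their own means. They were Manba, the gene of a lysosomal mannosidase, at a distance of 0.11, Cltb, a clathrin light chain gene, at 0.11, Rrp36, a ribosomal RNA processing factor, at 0.12, and the histone acetyltransferase adaptor Tada3 and the receptor adaptor Grb14, each at 0.13. The median distance was 0.33, and a profile with no change over the arrays would lie at 0.29. Manba stood at 5.57 and 5.54 in the EV arrays, 5.90 and 5.92 in the wild-type arrays, and 6.13 and 6.42 in the H483A arrays. Its 3 steps follow from the search for a profile like that of Mlkl. Cltb stood at 6.59 and 6.58, 6.70 and 6.51, and 7.01 and 7.06, so its EV and wild-type groups overlapped. The member nearest to Mlkl was Fadd, at 0.22, with 336 genes nearer, and the member farthest from it was Ripk3, at 0.36, with 5690 genes nearer.

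Around the members, 8 lists of the wider pathway held 135 genes, of which 124 were measured. Of these, 0 passed limma's threshold in any comparison. At an unadjusted p under 0.05 there were 2 of the 124 for wild-type against EV, 1 for H483A against EV and 1 for H483A against wild-type, shares of 1.61%, 0.806% and 0.806% that lie below those of all genes. Medians over these genes were 0.07, 0.03 and -0.04.

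Death receptor ligands gave low signals, with 0 of the 4 measured above the median gene. Lta, the gene of lymphotoxin alpha, stood at 4.38 and 4.33 in the EV arrays, 4.10 and 4.07 in the wild-type arrays and 4.03 and 4.16 in the H483A arrays. Tnf stood at 5.62 and 5.52, 5.34 and 5.40, and 5.55 and 5.41. Of the 4 ligand genes, 3 had both wild-type arrays below EV, and Tnfsf10, the gene of the ligand TRAIL, had both above, at 4.02 and 3.93 against 3.88 and 3.77. Over all genes these shares were 15.4% lower and 16.5% higher. The largest of these differences, -0.28 for Lta, had a 95% CI of -0.57 to 0.01.

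Among 10 other receptors of the family, 9 had a log2 difference above 0 for wild-type against EV, with a median of 0.15, and 7 for H483A, with a median of 0.08. Over all genes 51.3% and 50.2% lay above 0, and the 2 comparisons share the EV arrays. For H483A against wild-type 3 of the 10 lay above 0. Tnfrsf10b, the mouse TRAIL receptor gene, stood at 5.29 and 5.43 in the EV arrays, 5.78 and 5.93 in the wild-type arrays, and 5.44 and 5.14 in the H483A arrays. Both wild-type arrays lay above the other 4. The log2 difference was 0.49 (95% CI 0.13 to 0.86, unadjusted p = 0.0162) against EV, and H483A minus wild-type was -0.56 (95% CI -0.92 to -0.19, unadjusted p = 0.00918). Neither passed, with limma adjusted p of 1 and 0.928. Eda2r, a receptor gene induced by p53, had the other unadjusted p under 0.05 for wild-type, at 5.91 and 5.53 against 5.30 and 4.97, and stood at 5.56 and 5.04 in the H483A arrays. Ltbr, the lymphotoxin beta receptor gene, stood at 7.35 and 7.10, 7.40 and 7.11, and 7.48 and 7.74, with both H483A arrays highest.

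The 23 measured genes of the TNF receptor complex and the NF-kB kinases were centred near 0, with medians of 0.004 for wild-type and 0.03 for H483A against EV. Map3k7, the gene of the kinase TAK1, stood at 7.86 and 8.15 in the EV arrays, 7.59 and 8.04 in the wild-type arrays, and 7.84 and 7.29 in the H483A arrays. Otulin, a deubiquitinase of linear ubiquitin chains, stood at 6.10 and 6.76 in the H483A arrays against 5.95 and 5.90 in the wild-type arrays. Birc2, the gene of the ubiquitin ligase cIAP1, stood at 5.79 and 6.16 against 5.82 and 5.20. Tnfaip3, which encodes the ubiquitin editor A20, was higher in the second array of every group, at 6.14 and 6.72, 6.41 and 7.09, and 6.01 and 6.94.

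Other triggers and modulators of necroptosis had 12 of 15 genes above 0 for wild-type and 10 of 15 for H483A against EV, with medians of 0.10 and 0.05. Over all genes 51.3% and 50.2% lay above 0. For H483A against wild-type 7 of the 15 did so. The double-stranded RNA sensor Tlr3 stood at 4.61 and 4.63 in the EV arrays, 5.10 and 4.69 in the wild-type arrays, and 5.07 and 4.71 in the H483A arrays. The RNA-dependent kinase gene Eif2ak2 stood at 6.04 and 5.61, 6.45 and 5.83, and 6.02 and 5.45. Stub1, a ubiquitin ligase that targets RIPK3, stood at 7.42 and 7.05, 7.60 and 7.06, and 7.40 and 8.12. In each of these genes the arrays of at least 1 group lay far apart, and no interval lay clear of 0.

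Apoptosis execution and BCL2 family genes had 6 of 21 members with both H483A arrays above both EV arrays and 0 below, against 13.6% and 14.6% of all genes, with a median of 0.07. For wild-type against EV, 3 lay above and 3 below. The BH3-only gene Pmaip1 had the largest difference, 0.96 (95% CI -0.20 to 2.11), at 5.46 and 6.36 against 4.77 and 5.14, and it stood at 4.97 and 6.33 in the wild-type arrays. Bak1, a pore-forming member, stood at 6.62 and 6.62, 6.58 and 6.81, and 6.65 and 7.31. Of 10 pyroptosis genes, the gasdermin gene Gsdme stood at 9.52 and 9.52 in the EV arrays, 8.54 and 9.36 in the wild-type arrays, and 8.99 and 9.17 in the H483A arrays, below EV in all 4 arrays with KDM5A. Its differences of -0.57 (95% CI -1.20 to 0.06) and -0.44 (95% CI -1.07 to 0.19) did not pass.

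The median genes of the interferon-stimulated and NF-kB target lists differed between the first and second arrays of the groups with KDM5A. Signalling itself was not measured. The median of 27 interferon-stimulated genes lay 0.70 above its EV mean in the first wild-type array and 0.40 above it in the first H483A array, and 0.15 and 0.18 below it in the second arrays. Usp18, a deconjugase of the ubiquitin-like ISG15, stood at 6.78 and 4.31 in the wild-type arrays and 6.21 and 3.98 in the H483A arrays, against 4.51 and 4.38. Mlkl stood at 5.84 in both H483A arrays and at 5.45 and 5.32 in the wild-type arrays. Its relation to the interferon-stimulated genes was not tested. The median of the fibroblast marker list leaned the same way, at 0.23 and 0.19 above its EV mean in the first KDM5A arrays. It lay 0.34 and 0.38 below it in the second. Its genes did not all do so, with Col3a1 at 12.90 and 10.24 and Vim at 13.00 and 13.39 in the H483A arrays. The part of these array differences in the members' values was not tested. The median of 14 NF-kB target genes lay 0.13 and 0.11 above in the first KDM5A arrays and 0.37 and 0.30 below in the second. Cxcl1, a chemokine gene of this list, stood at 9.11 and 8.47, 9.50 and 7.41, and 9.58 and 6.89. Sod2, of the same list, ran the other way, at 7.31 and 7.73 in the wild-type and 7.55 and 8.33 in the H483A arrays.

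**Figure D5:**
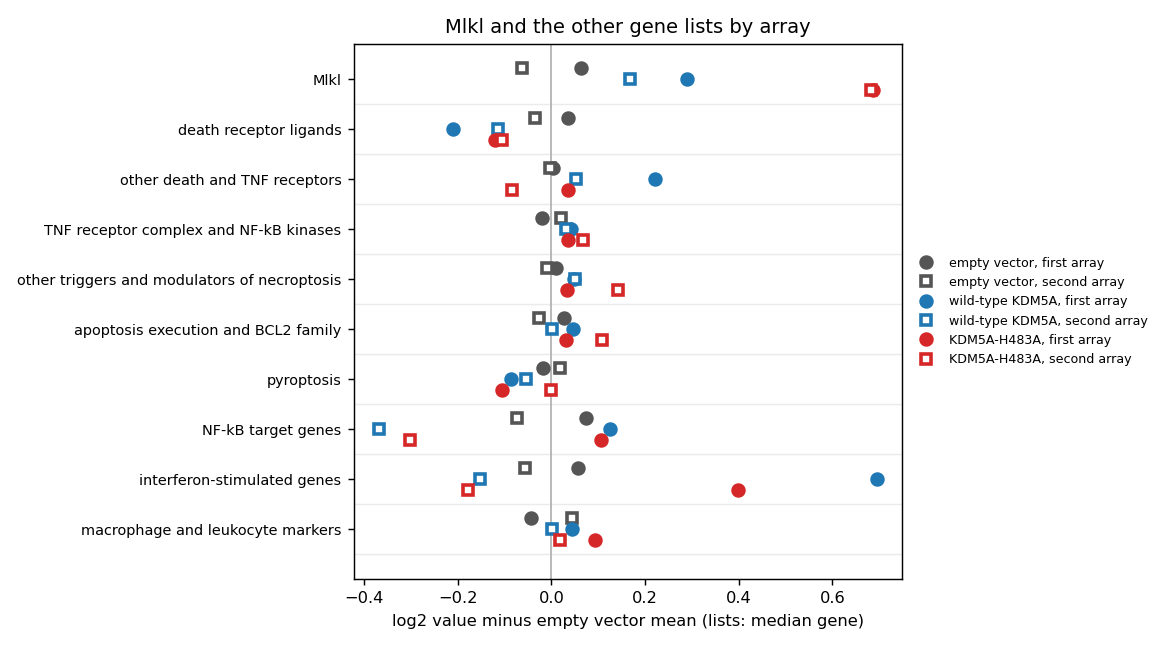
Log2 value minus the EV mean (x axis) for Mlkl and for the median gene of each list (y axis) in each array, with colours for groups, filled circles for first arrays and open squares for second arrays. The interferon-stimulated list reaches 0.70 and 0.40 in the first KDM5A arrays and lies below 0 in the second. Mlkl is level in the 2 H483A arrays and is higher in the first wild-type array than in the second.

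The labelled cell type was borne out by its markers, since all 10 fibroblast markers, among them Col1a1, Pdgfra and Thy1, lay above the 80th percentile of probe sets in mean level. Of 9 macrophage and leukocyte markers 0 did, and 5 lay below the 50th percentile. The lowest was Ptprc, between 2.76 and 3.18, and the highest were Csf1r, at the 73.5th percentile, and Cd14, at the 69.5th. The median of the macrophage list stayed between -0.04 and 0.09 of its EV mean in all 6 arrays. Epithelial and endothelial lists likewise had 0 of 7 and 0 of 6 above the 80th percentile. Kdm5a itself stood between 5.83 and 6.11 in all arrays in its brightest probe set, and the labels do not place its probe sets relative to the deletion, so it checks neither the deletion nor the reintroduction.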

How the data were processed

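Total RNA of 6 samples was profiled on Affymetrix M430 2.0 arrays. The values the authors deposited are on a log2 scale and come from RMA according to the labels, that is, per the submitters' processing notes; the version was not stated. RMA quantile-normalizes arrays, which hides any change in the total RNA of a cell, and it compresses differences of dim genes. Array medians lay between 4.55 and 4.60, and no further scaling was applied. With 2 arrays a group, their number limits the precision.

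Of 45101 probe sets, 34958 had 1 gene symbol, 932 several and 9211 none listed. Symbols were updated by Entrez ID (34754 matched). For a gene with several probe sets the one of highest mean was kept, with sets ending in _x_at used only where no other existed, which left 18194 genes. Limma (version 3.58.1, R 4.3.3) was fitted with 1 mean per group over 6 arrays, 3 residual and 3.42 prior degrees of freedom, and two-sided p-values were adjusted by Benjamini-Hochberg over all genes, at a threshold of 0.05. The procedure was tested on simulated data. All probe sets except control probes were also fitted separately.

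The members and gene lists were chosen with earlier results of these data known. Named genes were all members, from each other list the 2 with the largest difference in a comparison (some of them are left out of the text), and the 5 nearest to Mlkl. Promoter windows came from RefSeq (GRCm38.p6). Each array was left out in turn, and the replicate block, a filter on dim genes, the mean of probe sets, all probe sets, a trended robust prior and median centring were tried.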

Additional observations from a re-analysis of the deposited data

How the results depend on the processing

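All 12 alternatives called 0 genes and 0 members in each comparison, with a smallest limma adjusted p of 0.23 over all genes and 0.281 over the tested members, both without the first KDM5A-H483A array. Leaving out that array, or any other, leaves 1 array in its group, so such a fit shows how the remaining array differs. Deviations of arrays with the same replicate number correlated across genes at 0.31 (empty vector with wild-type KDM5A), 0.02 (empty vector with KDM5A-H483A) and 0.53 (wild-type KDM5A with KDM5A-H483A). The 2 KDM5A forms thus shared part of their difference between first and second arrays. The labels do not say whether the numbers pair the samples, and the main fit left them unpaired. A replicate block lowered the SE of each tested member, for Cflar from 0.22 to 0.15. With the replicate block 0 genes were called, and 713, 502 and 922 genes had an unadjusted p under 0.05 for wild-type KDM5A and then KDM5A-H483A against empty vector and for the 2 forms against each other, compared with 459, 301 and 694 without it. Of the tested members, 1, 2 and 0 did so with the block, compared with 1, 0 and 0. Without the first KDM5A-H483A array the Casp8 difference against empty vector was 0.62, and without the second it was -0.076. For wild-type KDM5A against empty vector the count of 1 became 0 without the second empty vector array, without the first wild-type KDM5A array, with the filter on dim genes and with the mean of probe sets.

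Of 18 log2 differences of the tested members, 6 kept their sign under every alternative and 12 did not. Leaving out 1 array moved wild-type KDM5A against empty vector between -0.051 and 0.23 for Ripk3, -0.36 and 0.31 for Tnfrsf1a, and -0.13 and 0.18 for Tradd. It moved KDM5A-H483A against empty vector between -0.24 and 0.046 for Ripk3, -0.076 and 0.62 for Casp8, -0.093 and 0.27 for Tnfrsf1a, and -0.072 and 0.24 for Tradd. It moved KDM5A-H483A against wild-type KDM5A between -0.25 and 0.45 for Casp8, -0.036 and 0.24 for Fadd, -0.46 and 0.092 for Cflar, -0.23 and 0.45 for Tnfrsf1a, and -0.029 and 0.15 for Tradd. With the mean of all probe sets of a gene this last comparison gave -0.049 for Fadd and 0.024 for Cflar, and wild-type KDM5A against empty vector gave 0.20 for Cflar; these means include the dimmer probe sets. Mlkl was picked for being higher with KDM5A-H483A than with empty vector, so a steady sign follows in part from that choice. Its differences lay between 0.62 and 0.75 for KDM5A-H483A against empty vector. They lay between 0.39 and 0.52 for KDM5A-H483A against wild-type KDM5A, and 0.17 and 0.29 for wild-type KDM5A against empty vector. The level of Mlkl was below the filter on dim genes, which gives it no value.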
